A study of Mus musculus with 16 samples.

Results

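Wnt ligands, their Frizzled receptors and the Sfrp and Dkk families of secreted antagonists were followed across mouse embryonic stem (ES) cells, epiblast stem cells (EpiSC) and EpiSC-like lines. The members were all gene probes of the array whose annotated gene name is Wnt, Fzd, Sfrp or Dkk followed by a number, whatever their signal. They were 49 of the 41174 gene probes and stood for 37 genes. Of these, 19 were Wnt ligands (23 probes), 10 were Frizzled receptors (16 probes), 4 were Sfrp genes (5 probes) and 4 were Dkk genes (5 probes). In all, 46 probes of 35 genes passed the filter, which asked for a signal well above background on 2 or more of 16 arrays, and were tested. Dkk4 was well above background on 1 array, the second Fzd5 probe on 1 and Wnt2b on 0, so these 3 probes were not tested.

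Wnt proteins are secreted, lipid-modified ligands that bind Frizzled receptors on the cell surface. Together with the co-receptors Lrp5 and Lrp6 some of them stabilise beta-catenin, which joins the TCF and LEF factors at target genes such as Axin2, while others act on cell polarity and calcium without beta-catenin. Sfrp proteins carry a Frizzled-like domain and bind the ligands outside the cell, and Dkk1 and Dkk2 bind the co-receptors. In mouse ES cells beta-catenin activity favours self-renewal, and in the epiblast after implantation Wnt3, its targets and its antagonists pattern the primitive streak.

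RNA was measured on 16 one-colour Agilent arrays of stem cell lines, some titled as from non-obese diabetic (NOD) mice. Lines without NOD in the title are called non-NOD below, although a strain is given only for the 129 ES cells among them. ES cells are the model of naive pluripotency, and EpiSC that of the primed epiblast. The NOD groups were EpiSC-like induced pluripotent stem (iPS) line 6 (2 arrays, passages 7 and 12), EpiSC-like ES line 1 (4 arrays, passages 7, 10, 5 and 9) and ES cells (3 arrays, titled NOD-ES 4K, NOD ES 43 KP/CH and NOD ES 85 KP). The non-NOD groups were iPS cells named after EpiSC (2 arrays, titled iPS_EpiSC 3M and iPS_EpiSC 1K), EpiSC (2 arrays, passages 12 and 20) and 129 ES cells at passage 8, labelled epiESM (1 array) or mESM (2 arrays). Values of a group are given in that order, which is the order of its replicate numbers. What the title suffixes, epiESM and mESM stand for, how the iPS lines were made and which strain the EpiSC come from is not given here. Both EpiSC-like groups are passages of 1 line each and the mESM arrays share 1 source label. The p-values therefore measure spread between these arrays alone, some of which may be technical.

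A level below is log2 of the processed spot signal relative to the 75th percentile of the gene spots of its array, so 0 is that percentile. Levels compare arrays for 1 probe and not probes with each other. In these bulk samples, fewer cells that express a gene and less of its RNA per cell cannot be told apart. "Rose", "fell" and "called" are used where the adjusted p of limma, over all 34296 probes tested, was under 0.05.

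Pluripotency markers were set against the labels first. The 7 naive markers on the array were all well above background in every ES and EpiSC iPS array, and 3 to 5 of them were in the EpiSC-like and EpiSC arrays. The summed level of Pou5f1, Sox2 and Nanog, in multiples of the 75th percentile, was 1.20 to 1.28 in the EpiSC-like iPS line, 4.52 to 6.12 in the EpiSC-like ES line and 7.05 to 7.12 in EpiSC, against 48.8 to 50.4 in 129 ES mESM. Pou5f1, the central pluripotency factor, fell by 3.12 ± 0.66 (log2, SE) in the EpiSC-like lines relative to EpiSC (adjusted p = 0.0103), so the EpiSC-like lines did not have the EpiSC level of this marker. Of the 5 primed epiblast markers, 5 fell in the same comparison. Relative to NOD ES, Pou5f1 fell by 6.00 ± 0.57 by limma (adjusted p = 1.37e-05), and it was well above background on 1 of 2 EpiSC-like iPS arrays. As the mean of both lines, Pou3f1 also fell there and the other primed markers rose. Mean levels of T were -0.34 in the EpiSC-like ES line and -4.06 in the EpiSC-like iPS line, against -3.22 in NOD ES. Those of Fgf5, Otx2 and Cer1 were above NOD ES in both lines. The summed primed level was 6.43 to 7.09 in the EpiSC-like iPS line and 11.1 to 14.2 in the EpiSC-like ES line, against 7.56 to 9.14 in NOD ES. The array labelled NOD-ES 4K (NOD ES replicate 1) had the lowest share of gene spots well above background, 26.3%, and the array labelled iPS_EpiSC 1K (EpiSC iPS replicate 2) the next, 40.5%, while the other 14 lay between 51.2% and 88.5%. The SD of log2 differences between iPS_EpiSC 1K and the other NOD ES arrays was 0.387 and 0.397, against 0.964 to its group partner. NOD-ES 4K differed from iPS_EpiSC 3M with an SD of 0.698, against 1.13 and 1.15 to its own group. Results are therefore also given without both of these arrays.

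Across the 37 genes, 4 were well above background on all 16 arrays, namely Wnt1, Wnt7b, Fzd2 and Sfrp1, by the brightest probe of each gene. On at least 13 arrays, 24 genes were well above background. On at most 6 arrays stood 6 genes, the ligands Wnt2b, Wnt5a, Wnt8a, Wnt10b and Wnt16 and the antagonist Dkk4. Of the 49 probes, 5 were well above background on NOD-ES 4K and 15 on iPS_EpiSC 1K, against 30 to 46 on each of the other arrays. Low values on these arrays are therefore mostly values near background.

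**Figure D1:**
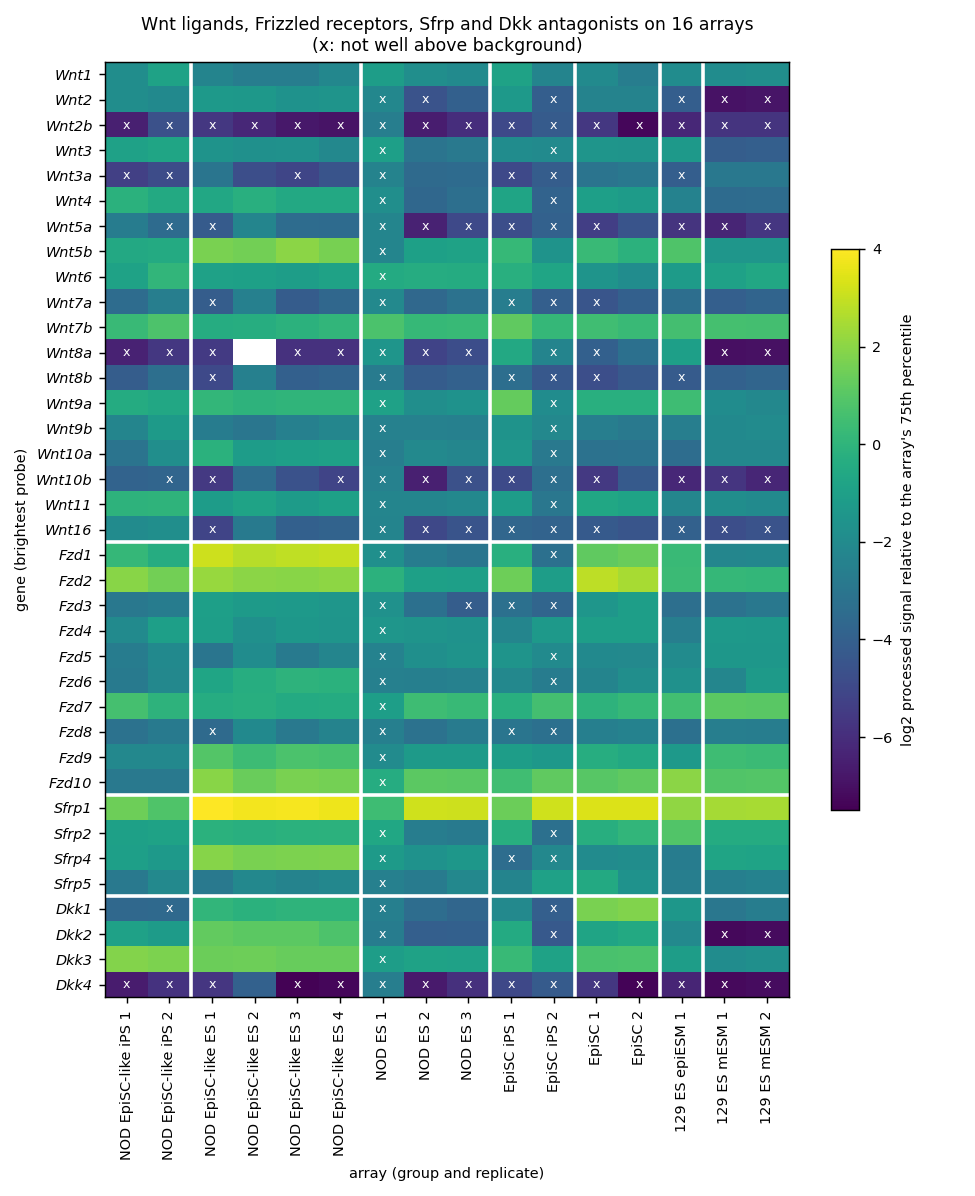
Level of the brightest probe of each of the 37 genes (rows, grouped as ligands, receptors, Sfrp and Dkk) on the 16 arrays (columns, grouped by title group), as log2 of the processed signal relative to the 75th percentile of the array; x marks a value not well above background and the blank cell a missing spot. Only 4 of the 37 genes lack an x on NOD ES 1, and Wnt2b has an x on all 16 arrays.

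The promoters of member genes were searched for the core word bound by TCF and LEF factors, CTTTGA or its reverse complement TCAAAG, in the 250 bases before each RefSeq gene start (GRCm38.p6). A promoter was at hand for 25 of the 37 genes (28 promoters). The word was present in 4 of these 28 (14.3%), against 4544 of all 32851 promoters (13.8%), so the members' share lay near that of all genes. The 4 holders were Dkk1, Fzd1, Wnt11 and Wnt5b. All 4 rose in the mean of both NOD EpiSC-like lines as described below, where 12 of the 35 tested genes rose. In the EpiSC-like iPS line alone Dkk1 (-0.37) and Wnt5b (0.86) were not called. Whether the word bears on these changes was not tested. The promoters of the 4 holders are shown with the word in capitals, so that word and level can be set side by side.
Dkk1, chr19:30549497-30549746, minus strand: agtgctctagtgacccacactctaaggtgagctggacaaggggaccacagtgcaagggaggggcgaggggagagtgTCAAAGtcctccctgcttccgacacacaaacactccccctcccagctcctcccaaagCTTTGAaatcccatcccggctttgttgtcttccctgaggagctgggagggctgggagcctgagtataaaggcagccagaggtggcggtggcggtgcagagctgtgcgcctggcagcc
Fzd1, chr5:4758217-4758466, minus strand: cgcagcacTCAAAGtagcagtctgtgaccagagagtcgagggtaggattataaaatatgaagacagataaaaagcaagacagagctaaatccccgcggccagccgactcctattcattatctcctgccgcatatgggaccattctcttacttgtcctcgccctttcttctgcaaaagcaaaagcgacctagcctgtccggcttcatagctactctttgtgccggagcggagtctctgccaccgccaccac
Wnt11, chr7:98834862-98835111, plus strand: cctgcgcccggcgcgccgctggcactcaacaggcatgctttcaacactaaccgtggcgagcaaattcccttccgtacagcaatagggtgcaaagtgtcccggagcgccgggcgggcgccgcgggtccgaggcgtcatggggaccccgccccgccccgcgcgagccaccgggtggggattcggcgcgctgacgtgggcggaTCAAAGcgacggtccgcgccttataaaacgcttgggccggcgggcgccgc
Wnt5b, chr6:119449387-119449636, minus strand: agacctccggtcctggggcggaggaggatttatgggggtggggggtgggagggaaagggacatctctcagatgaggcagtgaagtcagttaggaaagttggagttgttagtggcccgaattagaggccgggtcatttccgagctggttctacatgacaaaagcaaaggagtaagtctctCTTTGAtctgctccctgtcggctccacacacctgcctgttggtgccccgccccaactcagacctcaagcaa
Dkk1 held the word on both strands, with first bases at -174 and -117 from the gene start, and the other 3 held 1 copy each, at -242 in Fzd1, -50 in Wnt11 and -71 in Wnt5b. The median GC content of the members' promoters was 69.4%, against 52.4% of all promoters.

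The first question was how the Wnt genes differ between the EpiSC-like and the ES lines of NOD mice. By the brightest probe, all 3 tested Dkk antagonists, 4 of the 10 Frizzled receptors, 4 of the 18 tested ligands and 1 of the 4 Sfrp antagonists rose in the EpiSC-like lines relative to NOD ES cells. Fzd1 differed by 3.92 ± 0.52 (log2, SE), Dkk2 by 3.55 ± 0.64, Fzd2 by 2.60 ± 0.45 and Dkk3 by 2.56 ± 0.22. Wnt3a and Fzd10 fell. At probe level, 15 of 46 rose and 3 fell. Over all probes of the array 36.0% were called (15.2% higher, 20.8% lower), against 39.1% of the members, of which 32.6% were higher and 6.52% lower. The members' median difference was 0.70, against -0.28 over all probes tested. Without NOD-ES 4K and iPS_EpiSC 1K, 23 of the 46 probes rose and 5 fell, at a background of 49.9% called. With slide as a block, 8 rose and 3 fell, where 8454 of all 34296 probes were called.

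The same question in the non-NOD lines was put by EpiSC against 129 ES mESM. Again all 3 tested Dkk antagonists rose, together with Fzd1, Fzd2 and Fzd3 and the ligands Wnt2, Wnt3 and Wnt8a. Wnt6 and Sfrp4 fell. At probe level, 11 of 46 rose and 3 fell, which is 30.4% of the members, where 22.3% of all probes were called (10.5% higher, 11.8% lower). The median difference of the members was 0.97, against -0.34 over all probes. Leaving out both doubtful arrays, which changes only the estimate of spread here, gave 22 that rose and 5 that fell at a background of 43.2%. With slide as a block 4 rose and 1 fell, where 2609 of all 34296 probes were called, and no slide held both EpiSC and mESM.

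Of the 15 probes that rose in the NOD lines, 7 (46.7%) also rose in the non-NOD lines, where they were 63.6% of the 11. Over all probes these shares were 44.2% and 64.2%. Of the members, 0 fell in both, and Sfrp4 rose in the NOD lines and fell in the non-NOD lines.

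**Figure D2:**
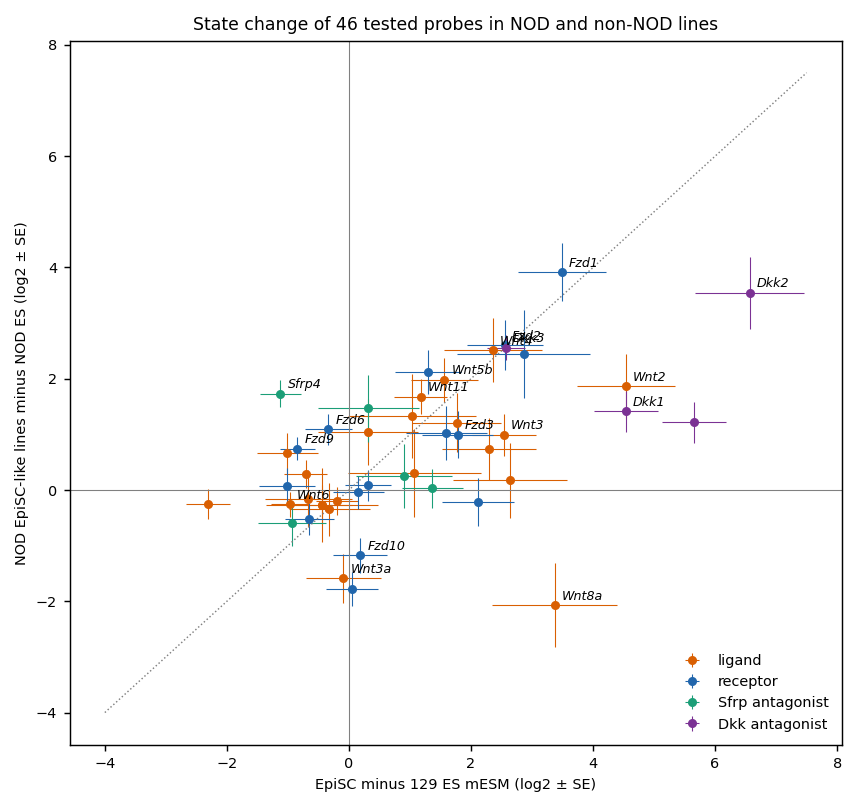
Log2 difference ± SE of each of the 46 tested probes between NOD EpiSC-like lines and NOD ES (vertical) and between EpiSC and 129 ES mESM (horizontal), coloured by family; the dotted line marks equal differences. Fzd1, Fzd2, Dkk3 and Wnt4 lie near the dotted line, and Dkk1, Dkk2 and Wnt2 lie below it at larger non-NOD differences. Sfrp4 and Wnt8a are among the probes that differ in sign between the axes, Wnt8a with no NOD array well above background. Signals not well above background are plotted as measured.

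Among the ligands, Wnt2, which signals through beta-catenin in lung development, had its probe at chr6:17929740-17929799 (mm7, minus strand). Wnt2 stood at -1.87 and -2.06 in the NOD EpiSC-like iPS line and at -1.31, -1.36, -1.65 and -1.56 in the NOD EpiSC-like ES line, against -2.18, -4.57 and -3.99 in NOD ES cells. In the non-NOD lines Wnt2 stood at -1.32 and -4.06 in EpiSC iPS, at -2.36 and -2.38 in EpiSC and at -4.07 in 129 ES epiESM, against -6.95 and -6.87 in 129 ES mESM. All 6 EpiSC-like arrays lay above all NOD ES arrays, and both EpiSC arrays above both mESM arrays, where Wnt2 was not well above background. Wnt2 rose in the NOD comparison by 1.87 ± 0.58 (adjusted p = 0.0262), and by 2.57 ± 0.17 without the doubtful arrays. Its EpiSC signal was at least 10.4-fold higher than that in mESM (adjusted p = 0.00235), a bound set by the lowest signal well above background on the mESM arrays.

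Wnt3 is the ligand that the mouse embryo needs to form the primitive streak (chr11:103925136-103925195, plus strand). Wnt3 stood at -0.94 and -0.74 in the NOD EpiSC-like iPS line and at -1.58, -1.74, -1.70 and -2.11 in the NOD EpiSC-like ES line, against -1.01, -3.07 and -2.84 in NOD ES cells. Wnt3 in the non-NOD groups stood at -1.89 and -2.01 in EpiSC iPS, at -1.49 and -1.55 in EpiSC and at -1.33 in 129 ES epiESM, against -4.10 and -4.02 in 129 ES mESM. EpiSC lay above mESM without overlap, whereas NOD-ES 4K, not well above background, stood among the EpiSC-like values. Wnt3 rose in EpiSC by 2.54 ± 0.53 (adjusted p = 0.00564). In the NOD comparison the difference was 0.99 ± 0.38 (adjusted p = 0.0622), and without the doubtful arrays it was 1.64 ± 0.16 (adjusted p = 2.00e-05). Its second probe, not well above background in mESM, was not called between EpiSC and mESM (adjusted p = 0.065).

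Wnt3a, a beta-catenin ligand of the tail-forming mesoderm (chr11:59329702-59329761, minus strand), went the other way. Wnt3a stood at -5.33 and -4.84 in the NOD EpiSC-like iPS line and at -3.04, -4.75, -5.08 and -4.53 in the NOD EpiSC-like ES line, against -2.34, -3.54 and -3.50 in NOD ES cells. Non-NOD levels of Wnt3a lay at -4.96 and -4.10 in EpiSC iPS, at -3.07 and -2.91 in EpiSC and at -4.08 in 129 ES epiESM, against -2.90 and -2.89 in 129 ES mESM. Both EpiSC-like iPS arrays, EpiSC-like ES replicate 3 and NOD-ES 4K, the highest NOD ES value, were not well above background. EpiSC-like ES replicate 1 lay above 2 of the NOD ES arrays, so the groups overlapped. Wnt3a fell by 1.59 ± 0.44 in the NOD comparison (adjusted p = 0.0151). The call was lost without the doubtful arrays, at -1.20 ± 0.46 (adjusted p = 0.0569). EpiSC and mESM differed by -0.093 ± 0.61 (adjusted p = 0.926).

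Wnt4, a ligand of kidney and female reproductive tract development, was read by a probe that spans chr4:136674216-136674784 (plus strand). Wnt4 stood at -0.17 and -0.51 in the NOD EpiSC-like iPS line and at -0.59, -0.24, -0.58 and -0.57 in the NOD EpiSC-like ES line, against -1.83, -3.67 and -3.30 in NOD ES cells. In the non-NOD lines Wnt4 stood at -0.76 and -3.86 in EpiSC iPS, at -1.02 and -1.18 in EpiSC and at -2.40 in 129 ES epiESM, against -3.49 and -3.43 in 129 ES mESM. The EpiSC-like arrays were the highest of the 16 and lay above all NOD ES arrays. Wnt4 rose in the NOD comparison by 2.52 ± 0.58 (adjusted p = 0.0051). The EpiSC to mESM difference was 2.36 ± 0.80 and missed the threshold (adjusted p = 0.0559), while without the doubtful arrays it was called (adjusted p = 1.76e-05).

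Wnt5b belongs to the ligands best known for signalling without beta-catenin (chr6:119458136-119458195, minus strand). Wnt5b stood at -0.54 and -0.47 in the NOD EpiSC-like iPS line and at 1.70, 1.57, 2.0 and 1.66 in the NOD EpiSC-like ES line, against -2.26, -0.97 and -0.87 in NOD ES cells. Wnt5b in the non-NOD groups stood at 0.21 and -1.59 in EpiSC iPS, at 0.30 and -0.10 in EpiSC and at 0.83 in 129 ES epiESM, against -1.45 and -1.47 in 129 ES mESM. The EpiSC-like ES line was the highest group, and the EpiSC-like iPS line stood between it and NOD ES without overlap. Wnt5b rose in the NOD comparison by 1.98 ± 0.40 (adjusted p = 0.00212). The difference between EpiSC and mESM was 1.56 ± 0.55 (adjusted p = 0.0632). The second Wnt5b probe was not called in the NOD comparison (0.73 ± 0.56).

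Wnt8a, which marks the posterior epiblast and primitive streak of the mouse embryo, was well above background on 3 arrays, those of EpiSC iPS replicate 1, EpiSC replicate 2 and epiESM. Wnt8a stood at -6.42 and -5.64 in the NOD EpiSC-like iPS line and at -5.56, -5.87 and -5.87 in the NOD EpiSC-like ES line, against -1.51, -5.18 and -4.79 in NOD ES cells. Non-NOD levels of Wnt8a lay at -0.56 and -2.33 in EpiSC iPS, at -3.99 and -3.26 in EpiSC and at -1.03 in 129 ES epiESM, against -7.02 and -6.97 in 129 ES mESM. Replicate 2 of the EpiSC-like ES line is missing from these values because its spot was marked as an outlier, and the fit dropped it. Wnt8a in EpiSC stood 4.34-fold above the lowest signal well above background in mESM and rose by limma (adjusted p = 0.0393). That fold takes in EpiSC replicate 1 as measured, which was not well above background, so it is not a lower bound. No fold is given for the NOD comparison, in which all arrays on both sides were not well above background.

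Wnt11, a ligand of cell movement in gastrulation (chr7:94885377-94885437, plus strand), was highest in the EpiSC-like iPS line. Wnt11 stood at -0.076 and -0.014 in the NOD EpiSC-like iPS line and at -1.16, -0.84, -1.18 and -0.98 in the NOD EpiSC-like ES line, against -2.28, -2.26 and -2.13 in NOD ES cells. In the non-NOD lines Wnt11 stood at -1.13 and -2.94 in EpiSC iPS, at -0.67 and -0.81 in EpiSC and at -2.21 in 129 ES epiESM, against -1.86 and -1.98 in 129 ES mESM. The iPS line lay above the ES line and both lay above NOD ES. Wnt11 rose by 1.68 ± 0.31 in the NOD comparison (adjusted p = 0.00136). The EpiSC to mESM difference was 1.18 ± 0.43 (adjusted p = 0.0747, and 0.000292 without the doubtful arrays).

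Wnt6, a ligand of epithelial differentiation, was the called ligand with lower levels in EpiSC. Its brighter probe ranged from -1.89 to -1.56 in EpiSC, against -0.90 to -0.60 in mESM, and fell by 0.97 ± 0.31 (adjusted p = 0.042). The second probe ranged from -4.75 to -4.01 in EpiSC, against -2.08 to -2.07 in mESM, and fell by 2.31 ± 0.37 (adjusted p = 0.00121). In NOD EpiSC-like lines against NOD ES the probes differed by -0.26 ± 0.22 and -0.25 ± 0.27 and neither was called.

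Of the other ligands, Wnt1, Wnt5a, Wnt7a, Wnt7b, Wnt8b, Wnt9a, Wnt9b, Wnt10a, Wnt10b and Wnt16 were not called in either state comparison. Wnt7b, a ligand of lung and placental development, differed by -0.21 ± 0.25 in NOD lines and by -0.20 ± 0.35 in non-NOD lines. Wnt9a differed by 1.21 ± 0.53 in NOD lines and by 1.77 ± 0.73 in non-NOD lines (adjusted p = 0.0997 and 0.11), and its second probe had the opposite sign in both, at -0.26 ± 0.66 and -0.44 ± 0.92, with neither EpiSC array well above background.

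Among the receptors, Fzd1 (chr5:4760009-4760068, minus strand), which transduces beta-catenin signals, had the largest NOD difference of the members. Fzd1 stood at 0.14 and -0.39 in the NOD EpiSC-like iPS line and at 3.13, 2.77, 2.92 and 3.00 in the NOD EpiSC-like ES line, against -1.79, -2.68 and -3.04 in NOD ES cells. Fzd1 in the non-NOD groups stood at -0.26 and -3.25 in EpiSC iPS, at 1.20 and 1.38 in EpiSC and at 0.28 in 129 ES epiESM, against -2.23 and -2.16 in 129 ES mESM. The 4 arrays of the EpiSC-like ES line were the highest, followed by EpiSC, and mESM, iPS_EpiSC 1K and the NOD ES arrays were the lowest. Fzd1 rose 15.1-fold in the NOD comparison (log2 difference 3.92 ± 0.52, adjusted p = 0.000136) and 11.2-fold in the non-NOD one (3.49 ± 0.72, adjusted p = 0.00565). With slide as a block the NOD difference was 4.18 (adjusted p = 0.0543), and within the slide that held 2 NOD ES arrays and 1 array of the EpiSC-like ES line it was 5.63, a value for that line, which alone rose by 5.46 ± 0.55.

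Fzd2, a receptor of both beta-catenin and other Wnt signals (chr11:102715340-102715399, plus strand), was well above background on all arrays. Fzd2 stood at 1.95 and 1.54 in the NOD EpiSC-like iPS line and at 2.20, 2.02, 1.94 and 2.05 in the NOD EpiSC-like ES line, against -0.12, -0.97 and -1.02 in NOD ES cells. Non-NOD levels of Fzd2 lay at 1.46 and -1.10 in EpiSC iPS, at 2.87 and 2.50 in EpiSC and at 0.33 in 129 ES epiESM, against 0.15 and 0.11 in 129 ES mESM. All 6 EpiSC-like arrays and both EpiSC arrays lay above all ES arrays. Fzd2 rose by 2.60 ± 0.45 in the NOD comparison (adjusted p = 0.000827) and by 2.55 ± 0.62 in the non-NOD one (adjusted p = 0.0132). Its second probe read at least 2.99-fold more signal in the NOD EpiSC-like lines than in NOD ES (adjusted p = 0.0298), since no NOD ES array was well above background. Between EpiSC and mESM the second probe was not called (adjusted p = 0.0828), and neither mESM array was well above background.

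Fzd3, a receptor of axon guidance and cell polarity (chr14:60062430-60062490, minus strand), was high in the EpiSC-like ES line and in EpiSC. Fzd3 stood at -2.90 and -2.68 in the NOD EpiSC-like iPS line and at -1.03, -1.23, -1.29 and -1.45 in the NOD EpiSC-like ES line, against -1.67, -3.27 and -4.11 in NOD ES cells. In the non-NOD lines Fzd3 stood at -3.26 and -3.76 in EpiSC iPS, at -1.45 and -1.06 in EpiSC and at -3.28 in 129 ES epiESM, against -3.16 and -2.91 in 129 ES mESM. The EpiSC-like iPS line lay below the EpiSC-like ES line, and NOD-ES 4K and NOD ES replicate 3 were not well above background. Fzd3 rose in EpiSC relative to mESM by 1.78 ± 0.58 (adjusted p = 0.0477), while its second probe differed by 1.60 ± 0.67 and was not called (adjusted p = 0.112). The NOD difference was 1.00 ± 0.42 (adjusted p = 0.088), or 1.67 ± 0.23 without the doubtful arrays (adjusted p = 0.000242).

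The other receptors called in the NOD comparison were Fzd6, Fzd9 and Fzd10 and the second probe of Fzd7. Fzd6, which acts in planar cell polarity, ranged from -2.81 to -2.13 in the EpiSC-like iPS line and from -0.76 to -0.071 in the EpiSC-like ES line, against -2.53 to -2.45 in NOD ES, and rose by 1.1 ± 0.28 (adjusted p = 0.00902). Fzd9, a receptor of the nervous system and bone, ranged from -2.15 to -2.12 in the EpiSC-like iPS line and from 0.40 to 0.92 in the EpiSC-like ES line, against -1.96 to -1.22 in NOD ES, and rose by 0.74 ± 0.21 (adjusted p = 0.0158). For both genes the EpiSC-like ES line lay above NOD ES, while the EpiSC-like iPS line overlapped NOD ES for Fzd6 and lay below it for Fzd9.

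Fzd10 stood at -2.84 on both arrays of the EpiSC-like iPS line and ranged from 1.37 to 1.97 in the EpiSC-like ES line, against -0.37 to 1.08 in NOD ES. It fell by 1.18 ± 0.32 as the mean of both lines (adjusted p = 0.0133). Taken alone, the iPS line fell by 3.42 ± 0.41 and the ES line rose by 1.07 ± 0.34 (adjusted p = 8.76e-05 and 0.0261).

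The probes of Fzd7, a receptor of pluripotent cells, disagreed. The brighter one differed by 0.065 ± 0.33 between EpiSC-like lines and NOD ES and the second one rose by 2.13 ± 0.39 (adjusted p = 0.0013). In EpiSC against mESM they differed by -1.01 ± 0.46 and 1.29 ± 0.55, neither called. Fzd4 and Fzd5 were not called in either state comparison, and neither was the brighter probe of Fzd8. The second Fzd8 probe was at least 4.31-fold higher in EpiSC (adjusted p = 0.0247), with neither mESM array well above background.

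Of the Sfrp antagonists, Sfrp4 (chr13:18999998-19000057, plus strand) moved in opposite directions in NOD and non-NOD lines. Sfrp4 stood at -1.02 and -1.29 in the NOD EpiSC-like iPS line and at 1.90, 1.69, 1.74 and 1.78 in the NOD EpiSC-like ES line, against -1.23, -1.62 and -1.42 in NOD ES cells. Sfrp4 in the non-NOD groups stood at -3.39 and -2.13 in EpiSC iPS, at -1.97 and -1.88 in EpiSC and at -2.67 in 129 ES epiESM, against -0.77 and -0.84 in 129 ES mESM. The EpiSC-like ES line stood above all other arrays, whereas the EpiSC-like iPS line overlapped NOD ES. Sfrp4 rose by 1.73 ± 0.25 in the NOD comparison (adjusted p = 0.000217) and fell by 1.12 ± 0.34 in EpiSC relative to mESM (adjusted p = 0.0368). The ES line alone rose by 3.20 ± 0.26, and the iPS line differed by 0.27 ± 0.31 and was not called (adjusted p = 0.581). Sfrp1, the antagonist with a level above 0 on all arrays, differed by 0.25 ± 0.57 in NOD lines and by 0.90 ± 0.79 in non-NOD lines, where its second probe had the opposite sign in both (-0.60 ± 0.40 and -0.93 ± 0.55). Sfrp2 differed by 1.47 ± 0.60 and 0.32 ± 0.83 and Sfrp5 by 0.027 ± 0.36 and 1.37 ± 0.49 in the same comparisons, none of them called.

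In the Dkk family every tested gene rose in both state comparisons. Dkk1, itself a target of beta-catenin and a head inducer of the embryo, had its brighter probe at chr19:30246086-30246145 (minus strand). Dkk1 stood at -3.62 and -3.56 in the NOD EpiSC-like iPS line and at 0.073, -0.17, -0.0037 and -0.012 in the NOD EpiSC-like ES line, against -2.53, -3.40 and -3.73 in NOD ES cells. Non-NOD levels of Dkk1 lay at -2.11 and -4.0 in EpiSC iPS, at 1.68 and 1.80 in EpiSC and at -1.43 in 129 ES epiESM, against -2.96 and -2.65 in 129 ES mESM. Both EpiSC arrays were the highest and the EpiSC-like ES line came next, while the EpiSC-like iPS line was as low as the NOD ES cells. Dkk1 rose by 4.54 ± 0.52 in EpiSC relative to mESM (23.2-fold, adjusted p = 0.000155) and by 1.41 ± 0.37 in the NOD comparison (adjusted p = 0.0116). The EpiSC-like ES line alone rose by 3.19 ± 0.40 (adjusted p = 8.30e-05), and the iPS line differed by -0.37 ± 0.47 (adjusted p = 0.618). Its second probe gave the same calls, at 5.65 ± 0.52 in non-NOD and 1.21 ± 0.37 in NOD lines.

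Dkk2, a close relative that can act as an agonist or antagonist at Lrp6 (chr3:131976322-131976381, plus strand), was not well above background in mESM. Dkk2 stood at -0.91 and -1.21 in the NOD EpiSC-like iPS line and at 1.25, 1.12, 1.11 and 0.79 in the NOD EpiSC-like ES line, against -2.66, -4.01 and -3.96 in NOD ES cells. In the non-NOD lines Dkk2 stood at -0.49 and -4.29 in EpiSC iPS, at -0.77 and -0.53 in EpiSC and at -2.09 in 129 ES epiESM, against -7.26 and -7.17 in 129 ES mESM. The EpiSC-like arrays lay above all NOD ES arrays, and EpiSC with iPS_EpiSC 3M stood far above mESM. Dkk2 was at least 34.3-fold higher in EpiSC than in mESM (adjusted p = 0.000459) and rose 11.7-fold in the NOD comparison (3.55 ± 0.64, adjusted p = 0.00115). With slide as a block it was called in neither comparison (adjusted p = 0.103 in NOD lines and 0.0932 in non-NOD lines).

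Dkk3, the most distant member of the family, is widely found in mesenchymal cells (chr7:108032840-108032899, minus strand). Dkk3 stood at 1.88 and 1.73 in the NOD EpiSC-like iPS line and at 1.43, 1.45, 1.32 and 1.31 in the NOD EpiSC-like ES line, against -1.11, -0.86 and -0.92 in NOD ES cells. Dkk3 in the non-NOD groups stood at 0.26 and -0.87 in EpiSC iPS, at 0.68 and 0.75 in EpiSC and at -1.09 in 129 ES epiESM, against -1.92 and -1.78 in 129 ES mESM. The EpiSC-like iPS line was above the EpiSC-like ES line, both were above EpiSC, and all of these were above every ES array. Dkk3 rose by 2.56 ± 0.22 in the NOD comparison (adjusted p = 7.47e-06) and by 2.57 ± 0.31 in the non-NOD one (adjusted p = 0.000218). With slide as a block its adjusted p was 0.0194 in NOD lines and 0.0577 in non-NOD lines.

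**Figure D3:**
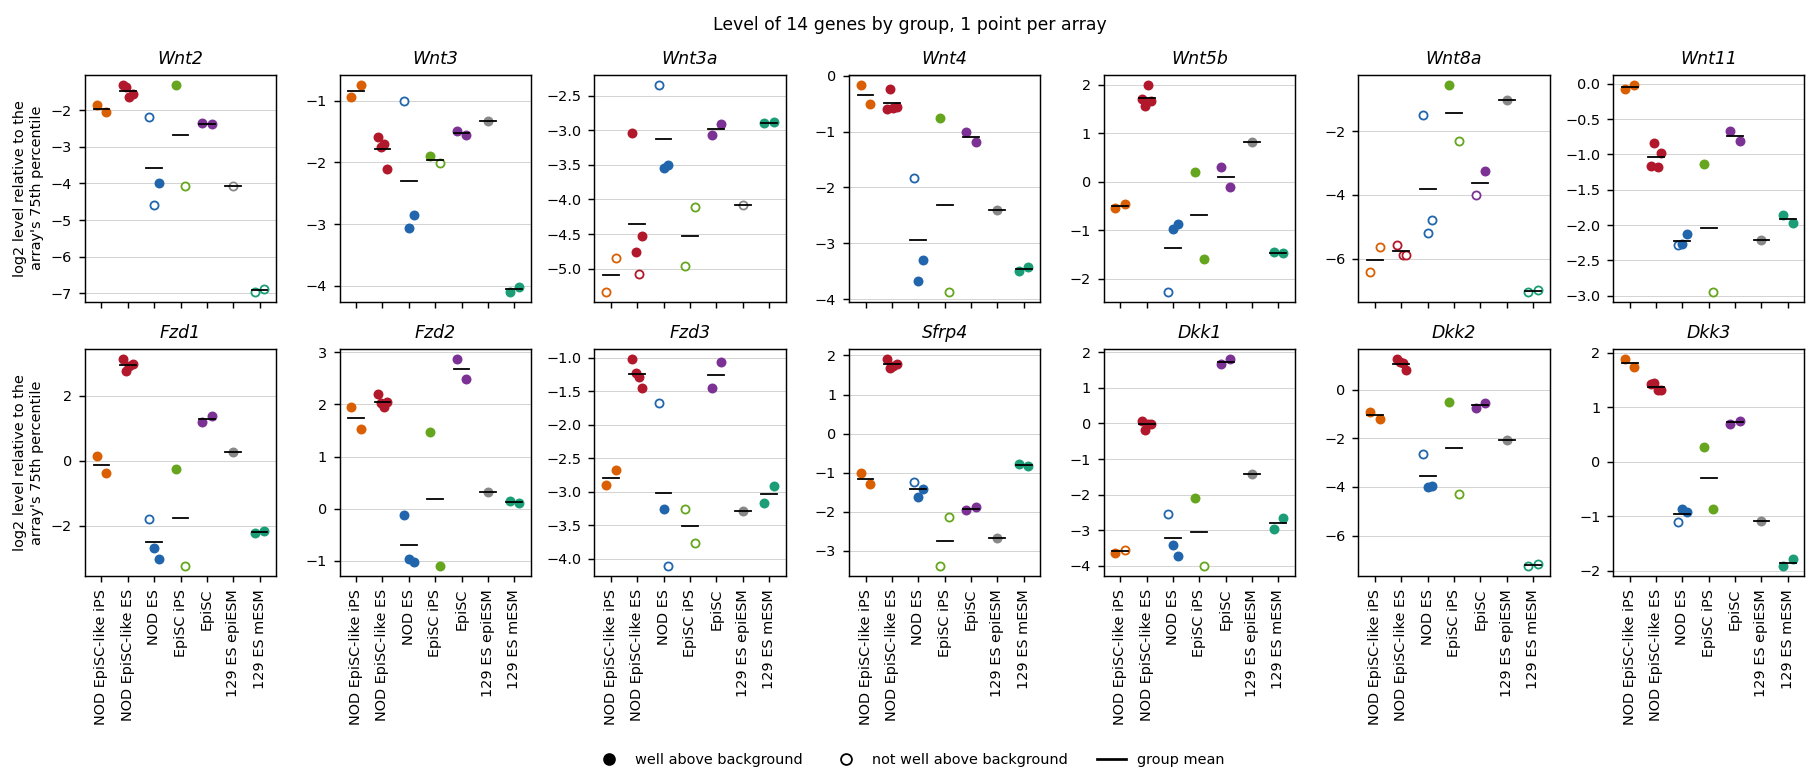
Level of 14 genes (log2 relative to the 75th percentile of the array) by group, with 1 point per array, filled where well above background and open where not, and a line at the group mean; each panel has its own axis. Dkk1, Fzd1, Sfrp4 and Wnt5b are high in the EpiSC-like ES line and lower in the EpiSC-like iPS line, and Dkk2, Wnt2 and Wnt8a are at or below -6.87 on both mESM arrays.

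Per the labels, feeder fibroblasts were depleted from ES cells by plating on gelatin, and EpiSC and EpiSC-like cells were separated from theirs mechanically. Fibroblast markers moved with the same groups. The summed level of the 12 markers on the list was 316 to 348 in the EpiSC-like iPS line and 468 to 656 in the EpiSC-like ES line, against 55.5 to 200 in NOD ES. It was 281 to 308 in EpiSC and 257 in epiESM, against 12.7 to 12.9 in mESM, and it spanned 55.7 to 624 in EpiSC iPS. Of the 12, 8 rose in the NOD comparison and 11 in the non-NOD one, and 9 or more were well above background on every array. Neural and endoderm markers moved with these groups too. The summed level of 5 neural markers was 12 to 12.8 in the EpiSC-like iPS line and 65.6 to 78.5 in the EpiSC-like ES line, against 1.89 to 10 in NOD ES, and it was 32.3 to 35.5 in EpiSC, against 2.16 to 2.25 in mESM. Of the 5, 3 (Pax6, Zic1 and Fabp7) rose in both comparisons, with Fabp7, a marker of neural progenitors, up by 7.92 ± 0.37 in the NOD lines. The summed level of 5 endoderm markers was 10.6 to 11.3 in the EpiSC-like iPS line and 11.4 to 13.7 in the EpiSC-like ES line, against 0.629 to 1.69 in NOD ES, and it was 23.8 to 25.2 in EpiSC, against 1.52 to 1.53 in mESM. Of these, 3 rose in the NOD comparison (Sox17, Gata6 and Foxa2) and 2 in the non-NOD one (Sox17 and Foxa2). The part of these 3 marker lists in the rise of the Dkk, Fzd and Wnt genes was not tested.

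**Figure D4:**
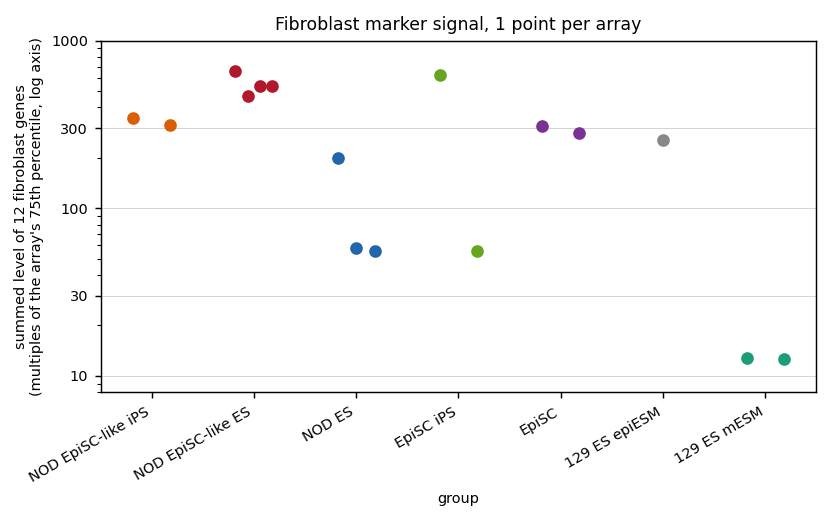
Summed level of 12 fibroblast genes on each array, in multiples of the 75th percentile of the array on a log axis, by group. Both mESM arrays lie at 12.7 to 12.9 and every other array lies at 55.5 or above.

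The difference between the NOD and the non-NOD state change was tested directly. It was called for 6 of 46 probes, at a background of 10.2%, and 3 were higher in the NOD lines (background 4.18%) and 3 lower (background 6.04%). For Dkk1 it was -3.13 ± 0.64 with the brighter probe and -4.44 ± 0.64 with the other (adjusted p = 0.0115 and 0.00218). Wnt8a is 1 of the 6, but no array of the NOD groups or of mESM was well above background, so no size is given for it. Sfrp4 (2.85 ± 0.42), Fzd9 (1.59 ± 0.36) and the second Wnt6 probe (2.06 ± 0.45) had the higher NOD change (adjusted p = 0.00247, 0.0176 and 0.0158). The NOD change is the mean of both EpiSC-like lines, which went apart for several of these genes. Against NOD ES, the ES and iPS lines alone differed by 3.20 and 0.27 for Sfrp4, 2.15 and -0.66 for Fzd9, and 3.19 and -0.37 for Dkk1. For Fzd1, Fzd2 and Dkk3 the difference was 0.43 ± 0.89, 0.048 ± 0.77 and -0.012 ± 0.38, not called. The fit without both doubtful arrays called 15 probes, 4 higher and 11 lower, at a background of 31.8%, and the fit with slide as a block called 1.

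The EpiSC-like iPS line was next set against the EpiSC-like ES line. Of 46 probes 13 fell and 0 rose in limma's test, where 24.7% of all probes were called (13.6% higher, 11.1% lower). By the brightest probe the lower genes were the receptors Fzd1, Fzd3, Fzd6, Fzd9 and Fzd10, the antagonists Sfrp1, Sfrp4 and Dkk1 and the ligands Wnt5b and Wnt10a. At an unadjusted p under 0.05 20 probes differed, both directions counted. Fzd10 fell by 4.49 ± 0.38 and its second probe by 2.11 ± 0.37 (adjusted p = 3.28e-05 and 0.00216). Fzd9 fell by 2.81 ± 0.25 and Sfrp4 by 2.93 ± 0.30 (adjusted p = 3.95e-05 and 7.50e-05).

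Dkk1 fell by 3.56 ± 0.45 (11.8-fold) and Fzd1 by 3.08 ± 0.63 (8.46-fold) in the EpiSC-like iPS line. Sfrp1 ranged from 0.84 to 1.47 in the iPS line, against 3.69 to 3.97 in the ES line, and fell by 2.67 ± 0.68 (adjusted p = 0.0157), and its second probe fell by 3.60 ± 0.48. Wnt10a, a ligand of skin and tooth development, ranged from -3.09 to -1.83 in the iPS line, against -1.15 to -0.16 in the ES line, and fell by 1.65 ± 0.43 (adjusted p = 0.0176). Wnt16 had a positive difference of 2.06 ± 0.71 that was not called (adjusted p = 0.0548).

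Against NOD ES, the EpiSC-like ES line alone had 22 probes that rose and 0 that fell in limma's test at a background of 39.8%, and the iPS line 8 that rose and 4 that fell at a background of 30.7%. The probes that rose in both lines numbered 7 and were those of Wnt4, Wnt11, Fzd1, Fzd2, Dkk2 and Dkk3 and the second probe of Fzd7. The brighter Fzd10 probe and the second Sfrp1 probe rose in the ES line and fell in the iPS line. The second Fzd10 probe fell in the iPS line and was not called in the ES line. Of the fibroblast markers 4 of 12 fell in the iPS line relative to the ES line, as did 3 of the 5 neural markers and 2 of the 3 core pluripotency genes, and their part was not tested. Without the doubtful arrays, 8 members rose and 21 fell at a background of 48.6%, and within the slide that held both lines all 13 called differences kept their sign.

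**Figure D5:**
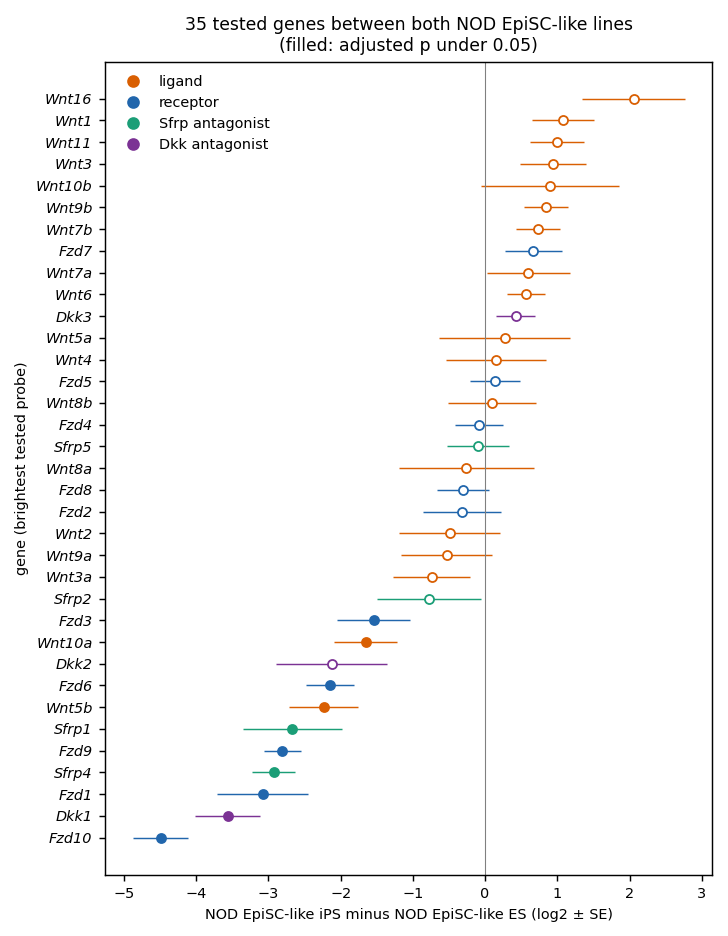
Log2 difference ± SE between the NOD EpiSC-like iPS line and the NOD EpiSC-like ES line for the brightest tested probe of 35 genes, ordered by size, coloured by family and filled where the adjusted p was under 0.05. The 10 filled genes all lie below 0, from Fzd3 at -1.54 to Fzd10 at -4.49.

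Compared with EpiSC, the EpiSC-like lines had 5 probes that rose and 4 that fell, at a background of 13.8% (6.86% higher, 6.98% lower). Sfrp4 rose by 2.24 ± 0.28 and both Wnt6 probes rose, by 1.04 ± 0.25 and 2.35 ± 0.31. Dkk3 rose by 0.87 ± 0.26 and Wnt10a by 1.52 ± 0.42 (adjusted p = 0.045 and 0.0332). Dkk1 fell by 3.55 ± 0.43, and by 3.51 ± 0.43 with its second probe (adjusted p = 0.000503 and 0.000521). Fzd10 fell by 1.70 ± 0.37 as the mean of both lines, though the ES line alone differed by 0.55 ± 0.38 and was not called. Wnt3a fell by 1.73 ± 0.51 (adjusted p = 0.0448).

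The EpiSC-like ES line alone differed from EpiSC at 7 probes (5 higher, 2 lower; background 6.97%) and the iPS line at 11 (4 higher, 7 lower; background 24.4%). As the mean of both lines, Fzd1, Fzd2, Dkk2, Wnt2, Wnt3 and Wnt4 were not called, with differences from -0.78 ± 0.52 for Fzd2 to 0.68 ± 0.66 for Wnt4. The ES and iPS lines alone went apart for Fzd1 (1.66 and -1.42) and Dkk2 (1.72 and -0.41), none of them called. Of the 12 fibroblast markers 0 were called here by limma (1 at an unadjusted p under 0.05), and without the doubtful arrays 6 rose and 1 fell. Without the doubtful arrays, 11 members rose and 11 fell at a background of 38.3%, and with slide as a block 2 rose and 3 fell.

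The EpiSC iPS arrays were compared with EpiSC. Both EpiSC iPS arrays lay on the same slide, which held no EpiSC array, so group and slide cannot be told apart here. Of 46 probes 3 rose and 6 fell, where 18.7% of all probes were called (10.5% higher, 8.18% lower). Dkk1 fell by 4.79 ± 0.52 (27.7-fold, adjusted p = 0.00013), and its second probe was lower by a factor of at least 27.9 (adjusted p = 8.66e-05). The 27.7-fold value takes in iPS_EpiSC 1K as measured, where the brighter Dkk1 probe was not well above background. Fzd1 fell by 3.05 ± 0.72, Fzd2 by 2.50 ± 0.62 and Dkk3 by 1.02 ± 0.31 (adjusted p = 0.0131, 0.0165 and 0.0406). Fzd3 was at least 4.53-fold lower (adjusted p = 0.0193), not well above background on either EpiSC iPS array. Both Wnt6 probes rose, by 1.24 ± 0.31 and 2.58 ± 0.37, and the second Fzd10 probe rose by 1.79 ± 0.43.

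With slide as a block 2 members rose and 12 fell against EpiSC, where 8163 of all 34296 probes were called. The block ties the EpiSC iPS slide to the other slides only through the doubtful array NOD-ES 4K, so it cannot settle the part of the slide. The comparison also depended on which EpiSC iPS array was taken. With iPS_EpiSC 3M alone and without NOD-ES 4K, 10 members rose and 15 fell at a background of 38.9%, and the fall of Fzd1 was 1.55 ± 0.26 and that of Fzd2 1.22 ± 0.23. That fit takes the lone array to vary like the other groups. Dkk2 stood at -0.49 on iPS_EpiSC 3M, close to EpiSC, and at -4.29 on iPS_EpiSC 1K, not well above background. The fibroblast sum was 624 on iPS_EpiSC 3M and 55.7 on iPS_EpiSC 1K. Of the 5 neural and the 5 endoderm markers, 3 each fell in EpiSC iPS relative to EpiSC, and the part of these lists was not tested.

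NOD ES and 129 ES mESM differed at 5 members, where 7.58% of all probes were called (4.88% higher, 2.7% lower). Mean NOD ES signals of Dkk2 and Wnt2 were 4.61-fold and 4.48-fold above the lowest signal well above background on the mESM arrays. Both rose by limma (adjusted p = 0.0215 and 0.0214). Wnt3 rose by 1.75 ± 0.48, and the second Fzd8 probe stood 5.2-fold above that lowest signal (adjusted p = 0.0495 and 0.0228). The folds of Dkk2, Wnt2 and Fzd8 take in NOD-ES 4K as measured. None of these probes was well above background there, so the folds are not lower bounds. Fzd9 fell by 1.87 ± 0.27 (adjusted p = 0.00331). The differences of Wnt3 and Fzd9 also take in NOD-ES 4K as measured. Neither was well above background there, and for Wnt3 it was the highest NOD ES value. Of the 12 fibroblast markers 6 rose in the same comparison, and their part was not tested. No slide held both NOD ES and mESM, and with slide as a block 0 of all 34296 probes were called. Without the doubtful arrays 8 members rose and 7 fell at a background of 23.1%, and with slide as a block limma called 0.

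The epiESM culture of 129 ES cells had 1 array, so no test was made against mESM. Of the 46 probes 15 were higher by over 1 (log2) and 7 lower, against 12% and 14% of all probes, and 24 stood within 1. These counts take all signals as measured. Wnt2 and the second Fzd2 probe, among those higher, were not well above background on epiESM or mESM. Wnt3a and the second Fzd3 probe, among those lower, were not well above background on epiESM. Wnt8a was at least 26.3-fold higher on epiESM and Dkk2 at least 12.7-fold higher. Wnt3 (2.72), Fzd1 (2.48), Wnt9a (2.44) and Wnt5b (2.29) were also higher, and the second Sfrp1 probe (-2.40), Sfrp4 (-1.87) and Fzd9 (-1.73) were lower on the log2 scale. The fibroblast sum was 257 there, against 12.7 to 12.9 on mESM.

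Other genes of the pathway were followed through 4 lists. Of 11 feedback targets of beta-catenin, 7 rose and 0 fell in EpiSC relative to mESM by limma, which is 63.6% against 22.3% of all probes. Sp5 rose by 6.27 ± 0.77 and T, the primitive streak factor, by 5.81 ± 0.41. Lgr5, a Wnt-responsive stem cell receptor not well above background in mESM, was at least 56.1-fold higher (adjusted p = 0.00023). In the NOD comparison 4 rose (Nkd1, Nkd2, Lgr5 and T) and 1 fell (Cdx1) as the mean of both lines, or 45.5% against 36.0% of all probes. In the EpiSC-like iPS line the mean level of T was -4.06, below the -3.22 of NOD ES. Nkd1, Nkd2 and Lgr5 stood above NOD ES in both lines, Lgr5 with no NOD ES array well above background. Axin2, a general target, rose by 1.63 ± 0.52 in EpiSC (adjusted p = 0.0432) and differed by -0.54 ± 0.37 in the NOD lines (adjusted p = 0.291). Without the doubtful arrays the NOD difference of Axin2 was -1.12. Mean levels of Axin2 were 0.08 in the EpiSC-like ES line and -3.80 in the EpiSC-like iPS line, against -1.32 in NOD ES. The difference of the state changes was called for 6 of the 11, or 54.5% against 10.2%. All 6 were lower for the mean of both NOD lines, with Sp5 at -7.40 ± 0.95. Mean levels of Sp5 were 0.95 in the EpiSC-like ES line and -3.06 in the EpiSC-like iPS line, against 0.07 in NOD ES. In the EpiSC-like iPS line 8 of the 11 (72.7%, background 24.7%) fell relative to the ES line, where Axin2 fell by 3.88 ± 0.45. In the EpiSC-like lines 6 of the 11 (54.5%, background 13.8%) fell relative to EpiSC.

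Of 10 other secreted modulators, 5 rose and 1 fell in the NOD comparison (60% called, background 36.0%) and 6 rose and 1 fell in the non-NOD one (70%, background 22.3%). The ligand-binding antagonists Frzb and Wif1 and the multi-ligand antagonist Cer1, which is also on the primed marker list, were not well above background in NOD ES or mESM, so that only bounds can be given. In the NOD EpiSC-like lines they were at least 22.5-fold, 23.3-fold and 23.6-fold higher than in NOD ES (adjusted p = 9.07e-05, 7.26e-05 and 0.000555). In EpiSC they were at least 45.7-fold, 58.4-fold and 985-fold higher than in mESM (adjusted p = 0.000298, 0.000392 and 8.41e-05). Rspo2, an enhancer of Wnt signals, rose by 1.61 ± 0.17 in NOD lines and was at least 34.9-fold higher in EpiSC than in mESM (adjusted p = 3.86e-07).

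Of 14 receptor partners and secretion genes, 3 rose and 1 fell in the NOD comparison (28.6% called, below the background of 36.0%) and 2 rose and 3 fell in the non-NOD one (35.7%, background 22.3%). Gpr177, the carrier that brings Wnt proteins to the cell surface, rose by 3.35 ± 0.51 in NOD and 4.92 ± 0.70 in non-NOD lines. Porcn, the enzyme that attaches the lipid, fell in EpiSC by 3.25 ± 0.54. Of 18 intracellular and nuclear components, 3 rose and 2 fell in the NOD comparison and 2 rose in the non-NOD one. These shares, 27.8% and 11.1%, lay below the backgrounds of 36.0% and 22.3%. Tcf7l2, a factor that binds beta-catenin, rose by 1.60 ± 0.24 in NOD and 1.99 ± 0.33 in non-NOD lines.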

How the data were processed

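Gene expression was measured on 16 one-colour Agilent arrays (design 014868), labelled with Cy3 from 0.5 µg of RNA per the labels. The authors' deposited scanner files (Feature Extraction 10.1.1.1, per the file headers) give the processed intensity of each spot, which the software had background-corrected. A deposited log2 table of the same arrays, whose values rank as the mean spot signal and whose further scaling is not given in the sources used here, served as an alternative. Probe coordinates are on mm7, per the file headers.

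Levels are log2 of the processed intensity minus the 75th percentile of the gene spots of the array. Outlier spots were left out and spots of 1 probe averaged. Probes well above background on at least 2 of 16 arrays (34296) were fitted together with limma 3.58.1 in R 4.3.3 over the 7 title groups, with Benjamini-Hochberg adjustment and a threshold of 0.05. The NOD EpiSC-like mean weights both lines equally. The procedure was tested on simulated data. The number of arrays limits the precision.

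Where a group was never well above background, a fold is given as "at least", from the lowest signal well above background on its arrays. The other group enters with all its arrays as measured, so the fold is a strict bound only where all of these were well above background. Each gene is read by its probe with the highest mean level, and the second probe is given where its sign or call in a state comparison differs. Values on every array are given for the 14 genes called in a state comparison with the largest differences. Of the pathway lists, called genes and those with the largest differences are named. The members and lists were chosen with earlier results of these data known. Alternatives were other background corrections and scalings, filters, slide as a block, and each array left out.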

Additional observations from a re-analysis of the deposited data

Results flagged for a closer look

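In the NOD EpiSC-like ES line, the group of 4 arrays, 2 of 36 member probes had 1 array far from the other 3 by Dixon's test at its usual critical value, and chance flags about 5% of such groups. Wnt4 stood at -0.24 on replicate 2 (gap over range 0.931). The second Fzd3 probe stood at -2.22 on replicate 1 (0.865).

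The state change differed between NOD and non-NOD lines, by limma's test of the difference (NOD minus non-NOD, log2), at 6 probes. It was 2.06 for the second Wnt6 probe (adjusted p = 0.0158), 1.59 for Fzd9 (adjusted p = 0.0176) and 2.85 for Sfrp4 (adjusted p = 0.00247). It was -5.44 for Wnt8a (adjusted p = 0.0234), but no NOD array and neither mESM array was well above background, so its size is not a measured difference. For Dkk1 it was -3.13 with the brighter probe (adjusted p = 0.0115) and -4.44 with the second (adjusted p = 0.00218). The NOD change is the mean of both EpiSC-like lines, which went apart for Sfrp4, Fzd9 and Dkk1 as given above.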

How the results depend on the processing

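Members called are given as counts of probes. Over all 34296 probes the main fits called 12357, 7633, 6418, 4748, 8464, 2601 and 3503, in the order below. With slide as a block these counts were 8454, 2609, 8163, 3530, 3509, 0 and 290. With normexp they were 9917, 1733, 854, 706, 42, 32 and 37. Member counts that moved with them are no result about the members. In NOD EpiSC-like lines against NOD ES, 18 became 11 with slide as a fixed block and 28 without NOD-ES 4K and iPS_EpiSC 1K. In EpiSC against mESM, 14 became 5 with normexp background correction, 5 with the slide block, 8 with the mESM arrays averaged and 27 without both doubtful arrays. In EpiSC iPS against EpiSC, 9 became 2 with normexp, 14 with the slide block and 25 without both. In EpiSC-like lines against EpiSC, 9 became 3, 5 and 22 under the same settings. In the EpiSC-like iPS against the ES line, 13 became 0 with normexp (19 at an unadjusted p under 0.05), 21 with normexp after high local backgrounds were set to the median, an alternative chosen after seeing the data, and 29 without both. In NOD ES against mESM, 5 became 0 with normexp, the slide block or averaged mESM arrays (4, 2 and 7 at an unadjusted p under 0.05), 1 with the changed normexp, quantile scaling, the deposited table or a random slide block, and 15 without both. For the difference of state changes, 6 became 0 with normexp (8 at an unadjusted p under 0.05), 1 with the slide block, 2 with averaged mESM arrays and 15 without both. In normexp, 6 arrays with 2 to 25 spots of very high local background had a narrowed range.

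Leaving out 1 array gave 14 to 24, 8 to 22, 3 to 15, 4 to 15, 9 to 20, 0 to 6 and 2 to 10 probes in the order above. Without NOD-ES 4K, EpiSC against mESM gave 22, EpiSC iPS against EpiSC 15, EpiSC-like lines against EpiSC 15, the EpiSC-like iPS against the ES line 20 and the difference of state changes 10. Without EpiSC replicate 1 or 2, EpiSC against mESM gave 8 and 9, EpiSC iPS 4 and 3, EpiSC-like lines against EpiSC 4 and 4, and the difference of state changes 2 and 3. Without either mESM array, EpiSC against mESM gave 8, NOD ES against mESM 0 (8 and 7 at an unadjusted p under 0.05) and the difference of state changes 2. Without either EpiSC iPS array the last gave 10.

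Reversed with normexp were Wnt3a in NOD lines (0.71) and against EpiSC (0.75), Wnt8a in the difference of state changes (0.11) and, between the EpiSC-like lines, Wnt10a (0.41), Fzd3 (0.81) and the second probes of Fzd10 (0.10), Sfrp1 (0.35) and Dkk1 (0.40). The cause was not tested. Against NOD ES, the iPS line alone reversed Fzd9 (-0.66) and Dkk1 (-0.37, second probe -0.21). The ES line alone reversed the brighter Fzd10 probe (1.07, and 0.55 against EpiSC). On slides that hold only the ES line of both, that Fzd10 probe likewise stood at 0.31 against NOD ES and 0.46 against EpiSC. The split of higher to lower calls against NOD ES, 15 to 3, was 22 to 0 with normexp and 17 to 1 with the deposited table. In EpiSC against mESM, 11 to 3 became 11 to 0 with quantile scaling, 11 to 1 with the deposited table and 7 to 4 with the changed normexp. The median of all probes against NOD ES moved to 0.03 with quantile scaling, -0.01 with the deposited table and 0.68 with normexp, from -0.28. Arrays could not be paired by replicate because the titles share no replicate numbers across groups, so only slide was used as a block. Signals near background limit Wnt8a and the arrays NOD-ES 4K and iPS_EpiSC 1K.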
